A study of Mus musculus with 6 samples.

Results

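The genes described here make and place the DNA breaks that start meiotic recombination, or form the chromosome axis on which those breaks are made. Trip13 differs in that its product removes proteins from the axis. They are the 10 mouse genes Spo11, Rec114, Mei4, Mei1, Ccdc36 (also called Iho1), Ankrd31, Prdm9, Hormad1, Hormad2 and Trip13, chosen by name and found by their Ensembl identifiers among the 48709 genes of the count table. RNA came from ovaries of CD1 embryos at 13.5 days post coitum (dpc), in 3 control libraries and 3 libraries from mothers that received both acetaminophen (APAP, 30 mg/kg per day) and the anti-inflammatory drug ibuprofen (IBU, 15 mg/kg per day) from 10.5 to 13.5 dpc. The mothers were wild type and were gavaged 4 times a day at intervals of 3 h, the controls with ethanol only, so the vehicle and the handling were common to both groups. Each library came from a pool of gonads of more than 1 litter, so 1 value is an average over several embryos and over germ cells and somatic cells together. The exposed samples carry titles that name IBU alone, while their exposure label names both drugs.

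In a fetal ovary the germ cells stop dividing and enter meiosis, and the axis is laid down along each chromosome while SPO11, a relative of the topoisomerases, cuts the DNA at many places. A set of partner proteins recruits and activates SPO11 on the axis, PRDM9 marks many of the places to be cut by methylating histone H3, and the HORMA domain proteins hold the machinery on axes that have not yet synapsed. The ATPase TRIP13 later strips the HORMA domain proteins from synapsed axes and also works with MAD2 in the spindle checkpoint of dividing cells.

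Promoter sequence was available for 9 of the 10 genes in RefSeq on GRCm38.p6, and Spo11 had no entry. The 5 windows printed here belong to Ankrd31 and Prdm9, the members with the largest differences between the groups, and to the members whose window held a searched motif (Prdm9, Hormad1, Hormad2 and Rec114). Each is the 250 bases before the transcript start annotated in RefSeq, 5′ to 3′ on the strand of the gene, with the motif matches in capitals. The Rec114 window lies inside the span of that gene given below, which comes from GENCODE, so the annotations place its start differently. The motifs were CACGTG (an E-box), GGCGGGA (bound by E2F factors) and CNCCTCAG (described for STRA8, the factor that turns on the meiotic programme), each searched on both strands.
Ankrd31, chr13:96748043-96748292, plus strand: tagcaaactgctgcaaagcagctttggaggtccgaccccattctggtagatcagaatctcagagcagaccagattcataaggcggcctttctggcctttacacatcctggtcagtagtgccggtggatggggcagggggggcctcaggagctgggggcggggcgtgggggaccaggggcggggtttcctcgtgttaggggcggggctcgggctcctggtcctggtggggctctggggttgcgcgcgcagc
Prdm9, chr17:15564355-15564604, minus strand: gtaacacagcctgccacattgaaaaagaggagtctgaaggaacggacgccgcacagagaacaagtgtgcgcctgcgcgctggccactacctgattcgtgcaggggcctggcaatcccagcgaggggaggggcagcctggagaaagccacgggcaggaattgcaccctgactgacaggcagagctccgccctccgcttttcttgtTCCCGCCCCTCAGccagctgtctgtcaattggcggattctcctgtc
Hormad1, chr3:95559427-95559676, plus strand: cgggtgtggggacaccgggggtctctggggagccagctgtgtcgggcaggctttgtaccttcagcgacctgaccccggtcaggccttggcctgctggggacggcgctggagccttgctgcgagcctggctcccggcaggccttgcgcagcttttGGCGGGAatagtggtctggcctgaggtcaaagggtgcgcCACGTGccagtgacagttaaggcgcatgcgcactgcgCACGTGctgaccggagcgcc
Hormad2, chr11:4441083-4441332, minus strand: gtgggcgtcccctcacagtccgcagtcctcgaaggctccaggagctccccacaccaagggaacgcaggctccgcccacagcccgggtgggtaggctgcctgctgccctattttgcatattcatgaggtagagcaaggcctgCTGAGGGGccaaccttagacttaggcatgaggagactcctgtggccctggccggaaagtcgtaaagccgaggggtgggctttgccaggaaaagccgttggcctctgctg
Rec114, chr9:58741560-58741809, minus strand: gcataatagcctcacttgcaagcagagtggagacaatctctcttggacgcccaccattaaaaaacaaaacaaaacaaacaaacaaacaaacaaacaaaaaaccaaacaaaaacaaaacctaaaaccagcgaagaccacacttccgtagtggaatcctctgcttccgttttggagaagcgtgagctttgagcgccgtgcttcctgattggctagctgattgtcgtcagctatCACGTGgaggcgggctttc

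Counting back from -1 at the base before the start, the E-box began at -57 and -20 in the Hormad1 window and at -19 in the Rec114 window. The E2F motif lay at -96 in Hormad1. In Prdm9 it began at -46 and overlapped the STRA8 motif, which began at -41, so these share bases of the capitals shown. The Hormad2 window held the STRA8 motif at -109. Each motif was thus found in 2 of the 9 members with a window, Prdm9 having a second window with an E2F match alone and Hormad1 a second one shifted by a few bases. Counted by gene in the same way, 6.86% of all genes with a window held the E-box, 11% the E2F motif and 7.39% the STRA8 motif, and of all 32851 windows of this length the shares were 6.02%, 9.75% and 6.42%. The windows of Ankrd31, Mei1, Mei4, Ccdc36 and Trip13 held none of the 3, and a match describes the letters only.

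Library totals ran from 37811968 to 48954631 counts, and a member had between 226 and 5816 counts in a library. All 10 members were among the 20167 genes that passed the filter on low counts. Levels are CPM (counts scaled to a common library size) after normalisation by the trimmed mean of M-values (TMM). Replicate 3 of both groups stood apart from the other libraries. The summed level of the 9 liver markers (Afp, Alb and others) was 1881 CPM in the third control and 3043 CPM in the third exposed library, while the remaining 4 libraries ranged from 176 to 535 CPM. Results are therefore given for all 6 libraries and again for replicates 1 and 2 of each group, without these libraries. The second fit thus leaves out the exposed library with the lowest summed level of the members (227 CPM). Its calls depend on that choice and are not separate support for a difference.

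Over all 6 libraries the quasi-likelihood test of edgeR gave none of the 10 members an adjusted p below 0.05, the limit for a call throughout, and 0% of all 20167 tested genes were called. At an unadjusted p under 0.05 there were 1254 genes, 6.22% of those tested, and 2 members, Spo11 and Ankrd31. DESeq2 called 192 genes and no member, with 1540 genes (7.64%) and 4 members at an unadjusted p under 0.05. The fold change was above 0 for 8 of the 10 members, as for 49.4% of all tested genes, and its median on the log2 scale was 0.43 for the members and -0.0047 for all genes. The exceptions were Rec114 and Trip13. With replicates 1 and 2 of each group, edgeR called 6 members higher in exposed ovaries (Spo11, Mei1, Ankrd31, Prdm9, Hormad1 and Hormad2), where 14.2% of 20633 tested genes were called higher, and 0 members lower, where 12.9% were called lower. All 10 members had an unadjusted p under 0.05 there, as did 41.0% of all genes. In a bulk sample, fewer cells of a type and less RNA per cell cannot be told apart, so a member's level depends on both. The p-values set the difference between the groups against the spread between pools, in the second fit that of replicates 1 and 2 only.

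**Figure D1:**
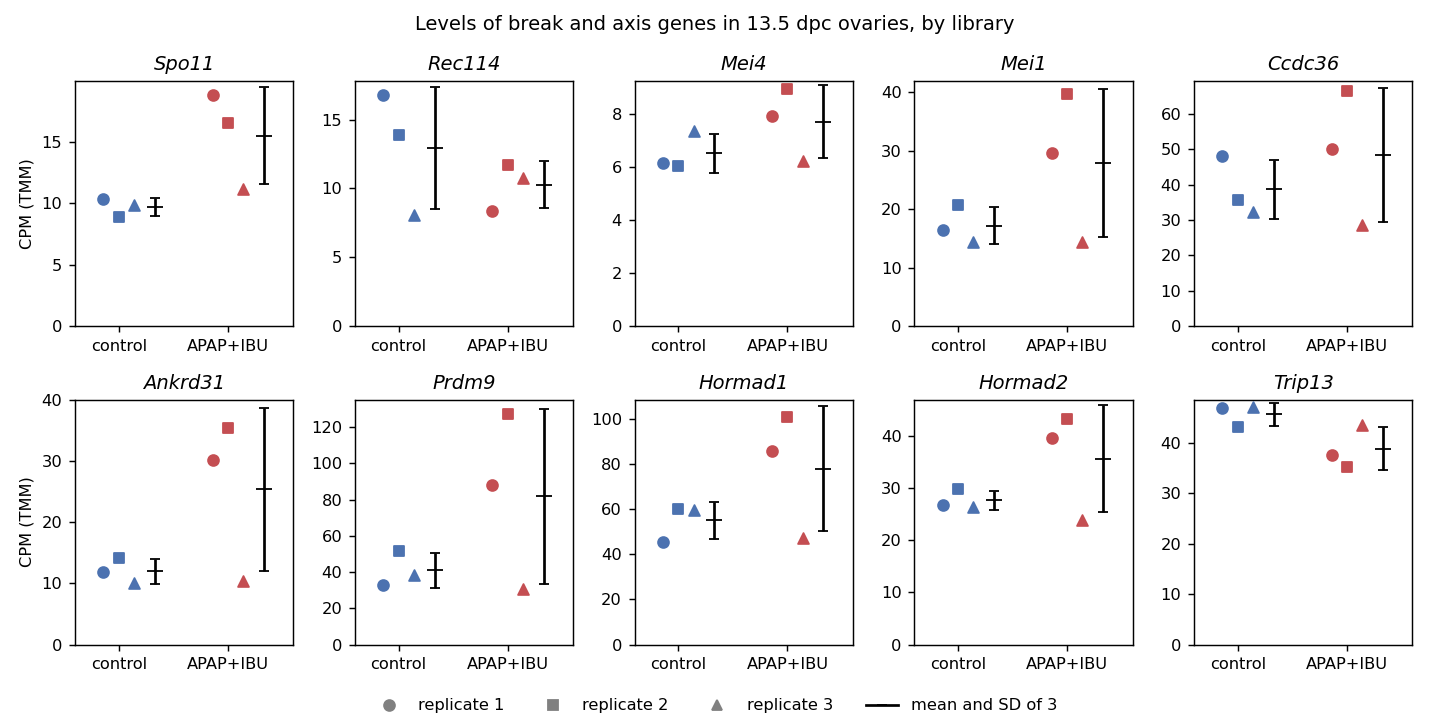
Level of each of the 10 break and axis genes in CPM with TMM normalisation, on a linear axis from 0 in each panel, with 1 point per library (circle, replicate 1; square, replicate 2; triangle, replicate 3) and the mean with SD of the 3 libraries of each group. Exposed replicates 1 and 2 lie above all 3 control libraries for 8 genes, while exposed replicate 3 lies above all 3 control libraries for Spo11 only. The share of all tested genes with the first pattern was not counted, so the 8 do not set these genes apart.

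Spo11 encodes the enzyme that makes the breaks (ENSMUSG00000005883, chromosome 2 of GRCm38, 172977700 to 172993576, plus strand). Control replicates 1, 2 and 3 had 10.3, 8.92 and 9.86 CPM of Spo11, and APAP+IBU replicates 1, 2 and 3 had 18.8, 16.6 and 11.2 CPM. Every exposed library was thus above every control library, with the third exposed pool only slightly so. Such a separation was seen for 1 of 10 members and for 4.78% of all tested genes. The means were 9.70 ± 0.722 CPM in controls and 15.5 ± 3.94 CPM in exposed ovaries (SD, n = 3 each). Its log2 fold change was 0.68 (SE 0.22, adjusted p = 0.692 in edgeR's test), and the exact two-sided permutation test over the 6 libraries gave p = 0.1, the smallest that 3 against 3 allow. In replicates 1 and 2 Spo11 rose 1.87-fold, a log2 fold change of 0.90 (SE 0.16, adjusted p = 0.0105, edgeR).

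Gm960, the former name of the gene for TOPOVIBL, the subunit that forms the cutting complex with SPO11, was taken from the list of other pathway genes and placed beside it after its values were seen. Its level was 5.14, 8.30 and 6.79 CPM in the controls and 12.4, 14.4 and 5.70 CPM in the exposed libraries. Replicates 1 and 2 of the exposed group were above all controls, and replicate 3 lay among them. The log2 fold change of Gm960 was 0.68 over 6 libraries (adjusted p = 0.692) and 1.01 in replicates 1 and 2 (adjusted p = 0.0245, edgeR).

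Rec114, Mei4 and Ccdc36 encode proteins that assemble on the axis and are needed for SPO11 to cut. Rec114 (ENSMUSG00000074269, chromosome 9, 58652850 to 58743964, minus strand) had 16.8, 13.9 and 8.08 CPM in control replicates 1, 2 and 3 and 8.34, 11.7 and 10.8 CPM in the exposed ones. The groups overlapped, and control replicate 3 was the lowest of all 6 libraries. Its log2 fold change was -0.33 (SE 0.28, adjusted p = 0.722) over 6 libraries and -0.60 (SE 0.20, adjusted p = 0.0672) in replicates 1 and 2, so neither edgeR fit called it. Exons of Rec114 share 344 bases with Nptn on the opposite strand, a gene for a cell adhesion protein with 92.5 to 116 CPM per library. The libraries were stranded, but the strand setting of the counting is not given in the sources used here, so the part of these reads in the Rec114 count was not tested. The log2 fold change of Nptn was 0.15 over 6 libraries (adjusted p = 0.721, edgeR), of opposite sign to Rec114. No other member shares exonic bases with another gene.

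Mei4 (ENSMUSG00000043289, chromosome 9, 81863670 to 82206007, plus strand) was at 6.14, 6.05 and 7.35 CPM in controls and 7.95, 8.95 and 6.25 CPM in exposed ovaries, with the third exposed library inside the control range. Its log2 fold change of 0.24 (SE 0.21, adjusted p = 0.723) was not called, nor was 0.49 (SE 0.18, adjusted p = 0.0874) in replicates 1 and 2 by edgeR. Ccdc36 encodes IHO1, which binds HORMAD1 and brings the others to the axis (ENSMUSG00000047220, chromosome 9, 108403611 to 108428484, minus strand). It had 48.2, 35.7 and 32.3 CPM in controls and 50.2, 66.4 and 28.7 CPM in exposed ovaries, so that the exposed group held both the highest and the lowest library. For Ccdc36 the log2 fold change was 0.32 (SE 0.30, adjusted p = 0.736) and, in replicates 1 and 2, 0.50 (SE 0.18, adjusted p = 0.0769), neither of them called by edgeR. None of the genes of this trio therefore passed the test in either fit.

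Mei1 and Ankrd31 encode further proteins without which breaks are lost or misplaced, ANKRD31 being a partner of REC114. Mei1 (ENSMUSG00000068117, chromosome 15, 82069996 to 82126814, plus strand) had 16.4, 20.7 and 14.4 CPM in controls and 29.6, 39.6 and 14.4 CPM in exposed ovaries. The replicate 3 libraries of the 2 groups had the same level to 3 digits, and both other exposed libraries were above every control. Its log2 fold change was 0.70 (SE 0.34, adjusted p = 0.692) over 6 libraries. With replicates 1 and 2 Mei1 rose 1.89-fold (log2 0.92, SE 0.18, adjusted p = 0.0122, edgeR).

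Ankrd31 (ENSMUSG00000109561, chromosome 13, 96748272 to 96910039, plus strand) had the largest log2 fold change of the 10 members over all 6 libraries before any correction. It was at 11.8, 14.1 and 10.1 CPM in controls and at 30.2, 35.4 and 10.3 CPM in exposed replicates 1, 2 and 3. Exposed replicates 1 and 2 were thus more than 2 times as high as any control, and exposed replicate 3 lay at the control level. Its log2 fold change was 1.08 (SE 0.41, adjusted p = 0.692), and a two-sided exact permutation test gave p = 0.3. Ankrd31 rose 2.57-fold in replicates 1 and 2 (log2 1.36, SE 0.15, adjusted p = 0.00623, edgeR).

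Prdm9, the histone methyltransferase whose zinc fingers choose recombination hotspots (ENSMUSG00000051977, chromosome 17, 15543079 to 15564354, minus strand), had the widest range in exposed ovaries. Its level was 32.9, 51.5 and 38.3 CPM in controls and 87.8, 127 and 30.9 CPM in exposed replicates 1, 2 and 3. Exposed replicate 3 was below every control library while the other exposed libraries were above every one. The SD of its log2 CPM was 1.06 in exposed ovaries and 0.33 in controls. The log2 fold change over 6 libraries was 1.002 (SE 0.44, adjusted p = 0.692), and Prdm9 rose 2.58-fold in replicates 1 and 2 (log2 1.37, SE 0.24, adjusted p = 0.00908, edgeR). Zcwpw1, the gene for a reader of the histone marks that PRDM9 writes, was set beside it after its values were seen and had 254, 272 and 182 CPM in controls and 262, 319 and 169 CPM in exposed ovaries. In the same 4 libraries the log2 fold change of Zcwpw1 was 0.16 (adjusted p = 0.314, edgeR), which was not called.

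Hormad1 and Hormad2 encode the HORMA domain proteins of unsynapsed axes, the first needed for normal break numbers and the second for signalling from axes that fail to synapse. Hormad1 (ENSMUSG00000028109, chromosome 3, 95559677 to 95587671, plus strand) was at 45.4, 60.0 and 59.9 CPM in controls and 85.7, 101 and 47.4 CPM in exposed ovaries. Hormad2 (ENSMUSG00000020419, chromosome 11, 4345814 to 4441105, minus strand) was at 26.8, 29.8 and 26.4 CPM in controls and 39.6, 43.3 and 24.0 CPM in exposed ovaries. For both genes exposed replicates 1 and 2 were above every control and exposed replicate 3 was not. The log2 fold change over 6 libraries was 0.50 (SE 0.27, adjusted p = 0.692) for Hormad1 and 0.37 (SE 0.22, adjusted p = 0.694) for Hormad2. In the fit of replicates 1 and 2 by edgeR they rose 1.80-fold (adjusted p = 0.00947) and 1.49-fold (adjusted p = 0.0132), respectively.

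Trip13, the gene for the ATPase that removes HORMA domain proteins (ENSMUSG00000021569, chromosome 13, 73911347 to 73937784, minus strand), had a fold change of opposite sign to those of its substrates. It had 46.8, 43.0 and 47.1 CPM in controls and 37.7, 35.2 and 43.6 CPM in exposed ovaries. Exposed replicates 1 and 2 were below every control, and the third exposed library was just above the lowest control. No member was thus below every control in every exposed library, a pattern that 5.92% of all tested genes had. The log2 fold change of Trip13 was -0.23 (SE 0.13, adjusted p = 0.692) and, in replicates 1 and 2, -0.28 (SE 0.11, adjusted p = 0.0939), and edgeR called neither. Mad2l1, the gene for its spindle checkpoint partner MAD2, had log2 fold changes of -0.01 (adjusted p = 0.979) and 0.08 (adjusted p = 0.552) in the same fits. Of the 9 genes of dividing cells, edgeR called 0 over 6 libraries and 1 higher (Bub1) and 1 lower (Cdc20) in replicates 1 and 2, the latter pair named after their values were seen. Their summed level was 1262 to 1798 CPM in controls and 1511 to 1632 CPM in exposed ovaries.

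Exposed replicate 3 was unlike exposed replicates 1 and 2 in most members. Between the replicate 3 libraries, 7 of 10 members were lower in the exposed one, Mei1 among them by a log2 difference of -0.000158 only. The log2 difference ran from -0.34 (Hormad1) to 0.41 (Rec114). The other members with a higher level there were Spo11 (0.18) and Ankrd31 (0.03). The SD of log2 CPM was larger in exposed than in control ovaries for 9 of 10 members, Rec114 being the exception (0.25 against 0.55). The shares of all tested genes with either pattern were not counted, so neither count sets the members apart from other genes. The summed level of the 10 members was 262, 284 and 254 CPM in controls and 396, 485 and 227 CPM in exposed replicates 1, 2 and 3.

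Base composition and length of the genes were taken into account in a further fit. When each of the replicate 1 and 2 libraries was corrected for exonic length and GC content by a loess fit, edgeR called 5 members higher (Spo11, Mei1, Ankrd31, Prdm9 and Hormad2), where 5.68% of all tested genes were called higher, and 1 lower (Trip13), where 8.23% were called lower. Hormad1, with the lowest GC content of the members at 35.8%, moved most, from a log2 fold change of 0.85 to 0.10 (adjusted p = 0.663). Mei4 (39.8% GC) went from 0.49 to -0.01 (adjusted p = 0.972) in edgeR, and Rec114 (52.4% GC), the shortest member with 1277 exonic bases, from -0.60 to -0.21 (adjusted p = 0.489). Prdm9 kept a log2 fold change of 1.25 (adjusted p = 0.0128), Mei1 (55.7% GC) one of 1.06 (adjusted p = 0.0113) and Ankrd31 (41.2% GC) one of 0.92 (adjusted p = 0.0109) in this edgeR fit. Spo11 had 0.74 (adjusted p = 0.0224), Hormad2 0.40 (adjusted p = 0.0482) and Ccdc36 0.45 (adjusted p = 0.145, edgeR), the last not called with or without the correction. Trip13 fell by 0.44 on the log2 scale (adjusted p = 0.0333, edgeR) after correction. So did Mad2l1, by 0.48 (adjusted p = 0.0366, edgeR), 1 of 2 dividing cell genes called lower in that fit, the other being Ccnb1. The median over the members was 0.71 before and 0.42 after, beside -0.0032 and -0.025 over all genes. Over all 6 libraries with this correction edgeR called no member, and the values ran from -0.29 (Trip13) to 0.96 (Prdm9).

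**Figure D2:**
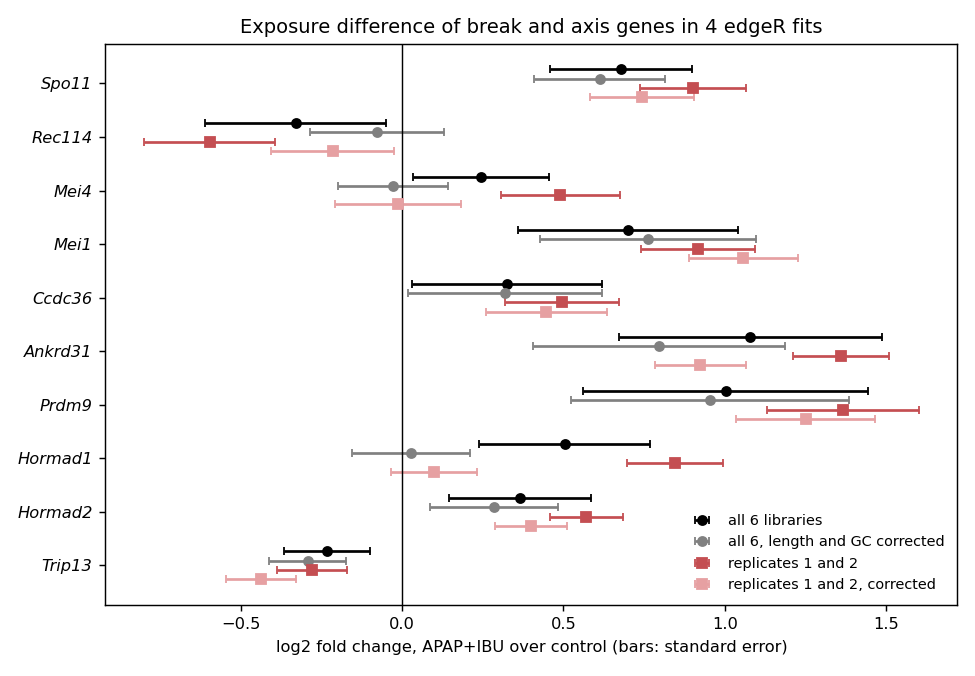
Log2 fold change of exposed over control ovaries with its standard error for each member in 4 edgeR fits, for all 6 libraries (circles) or replicates 1 and 2 (squares), each without (dark) and with (light) correction for exonic length and GC content. Prdm9, Ankrd31, Mei1, Spo11, Ccdc36 and Hormad2 lie to the right of 0 in every fit, and Trip13 and Rec114 lie to the left in every fit. Hormad1 and Mei4 move to near 0 with the correction.

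Germ cell content was followed with Ddx4, Dazl and Dnd1, genes of germ cells at this stage, which summed to 588 to 837 CPM in controls and 730 to 856 CPM in exposed ovaries. Relative to the mean log2 CPM of these 3 genes in the same library, the exposed minus control difference of the members ran from -0.32 (Rec114) to 0.87 (Ankrd31), with Prdm9 at 0.76, Spo11 at 0.61 and Mei1 at 0.55. On this scale 0 members had every exposed library above every control, as had 1.69% of all tested genes. The relative level of Trip13, with a difference of -0.28, was below every control in every exposed library, as were 5.76% of all genes. Dnd1 itself varied, from 11.6 to 35.7 CPM, and was called lower by edgeR in replicates 1 and 2 (log2 -1.07, adjusted p = 0.0386). Dazl (log2 0.68, adjusted p = 0.00632) and Ddx4 (log2 0.32, adjusted p = 0.0429) were called higher there. With the length and GC correction edgeR called none of these 3 genes. Their log2 fold changes were then -0.82 (Dnd1, adjusted p = 0.0821), -0.05 (Dazl, adjusted p = 0.812) and 0.08 (Ddx4, adjusted p = 0.683, edgeR). Against Ddx4 alone, a choice made after these values were seen, the difference over 6 libraries was 0.53 for Spo11, 0.79 for Ankrd31 and 0.69 for Prdm9. Every exposed library was then above every control for Spo11 only, a separation that 5.33% of all genes had on this scale. The separation of Trip13 was lost there (difference -0.35), and 0 members were below every control in every exposed library, as were 3.59% of all genes. Taking Ddx4 as the reference lowers every member by about the log2 fold change of Ddx4 itself, 0.32 in replicates 1 and 2. The direction of that shift therefore describes Ddx4 and not a member. In replicates 1 and 2 the differences relative to Ddx4 were 0.58 for Spo11, 0.59 for Mei1, 1.04 for Ankrd31 and 1.06 for Prdm9. They were 0.53 for Hormad1, 0.25 for Hormad2, 0.18 for Ccdc36, 0.16 for Mei4, -0.93 for Rec114 and -0.60 for Trip13.

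Levels can be compared between genes per kilobase of exon, though the order depends on the exonic length, here taken over all transcripts of a gene. In controls Hormad1 was the highest member with 31.9 ± 4.86 CPM per kb, followed by Ccdc36 (13.4 ± 2.90), Trip13 (13.1 ± 0.651), Hormad2 (10.1 ± 0.675), Rec114 (10.1 ± 3.46) and Prdm9 (9.49 ± 2.22, all SD, n = 3). The lowest were Mei1 (3.62 ± 0.678), Spo11 (2.47 ± 0.184), Ankrd31 (1.93 ± 0.329) and Mei4 (1.58 ± 0.176 CPM per kb). The ranges over the 3 control libraries did not overlap between Hormad1 and Ccdc36, Trip13 and Hormad2, Prdm9 and Mei1, or Mei1 and Spo11, and overlapped between the other neighbours. The catalytic gene Spo11 thus ranked below the axis genes and above only Ankrd31 and Mei4. Its control range overlapped that of Ankrd31 and lay above that of Mei4 (2.27 to 2.64 against 1.47 to 1.78 CPM per kb). In exposed ovaries Hormad1 was again first (45.2 ± 16.01 CPM per kb) and Mei4 last (1.87 ± 0.332), and Prdm9 came next to Hormad1 with 19.0 ± 11.2 CPM per kb. Only Trip13 and Rec114, and Spo11 and Mei4, were neighbours without overlap there.

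Other genes of the pathway were taken from a list of 25 axis, cohesin, break-response and strand-exchange genes, 24 of which were in the count table and all 24 tested (Spata22 is not analysed here), and from 4 genes of meiotic entry. Of the 24 genes edgeR called 0 over all 6 libraries (3 at an unadjusted p under 0.05, and 0 of all genes called), with 18 above 0 and a median log2 fold change of 0.20. In replicates 1 and 2 it called 14 higher and 3 lower (median 0.46), and 7 higher and 1 lower after length and GC correction (median 0.094). The shares among all tested genes are those given above for the same fits.

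The highest log2 fold changes over 6 libraries among these belonged to axis and cohesin genes and to 1 gene of strand exchange. Sycp2, which encodes an axis protein of the synaptonemal complex, had 17.993, 35.156 and 33.996 CPM in controls and 95.1, 97.4 and 31.8 CPM in exposed ovaries. Its log2 fold change was 1.36 (adjusted p = 0.692), and in replicates 1 and 2 it was 1.88 (adjusted p = 0.00662) and 1.18 after correction (adjusted p = 0.0117, edgeR). The meiotic cohesin genes Rad21l (log2 1.03) and Smc1b (log2 0.72) and Meiob (log2 0.71), for a single-strand DNA binding protein, followed over 6 libraries, each with an adjusted p of 0.692. In replicates 1 and 2 edgeR called all of these higher, with log2 fold changes of 1.39, 1.18 and 0.95, and after correction only Rad21l was still called among these 3 (log2 1.11, adjusted p = 0.0168).

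The lowest log2 fold changes over 6 libraries were those of H2afx (-0.55), Mnd1 (-0.51), Stra8 (-0.42) and Rec8 (-0.41), each with an adjusted p of 0.692 in edgeR. H2afx encodes the histone that is phosphorylated around breaks, and had 103, 85.8 and 48.5 CPM in controls and 42.3, 49.8 and 70.1 CPM in exposed ovaries. In replicates 1 and 2 H2afx fell by 1.02 on the log2 scale (adjusted p = 0.00623), and by 0.34 after correction (adjusted p = 0.0477, edgeR). Rec8, for the meiotic kleisin of the axis, fell by 0.63 (adjusted p = 0.00945), and Stra8, for the factor that starts the programme, by 0.41 (adjusted p = 0.0495), both without correction, and edgeR called neither with it. Mnd1, for a partner of the strand exchange proteins, had -0.60 in that fit (adjusted p = 0.0803, edgeR) and was not called. The other 3 entry genes were Meioc and Ythdc2, called higher in replicates 1 and 2, and Zglp1, which was not called. With the correction Ythdc2 was still called (log2 0.70, adjusted p = 0.0122) and Meioc was not (log2 0.38, adjusted p = 0.0627, edgeR), and none of the 4 entry genes was called over 6 libraries.

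**Figure D3:**
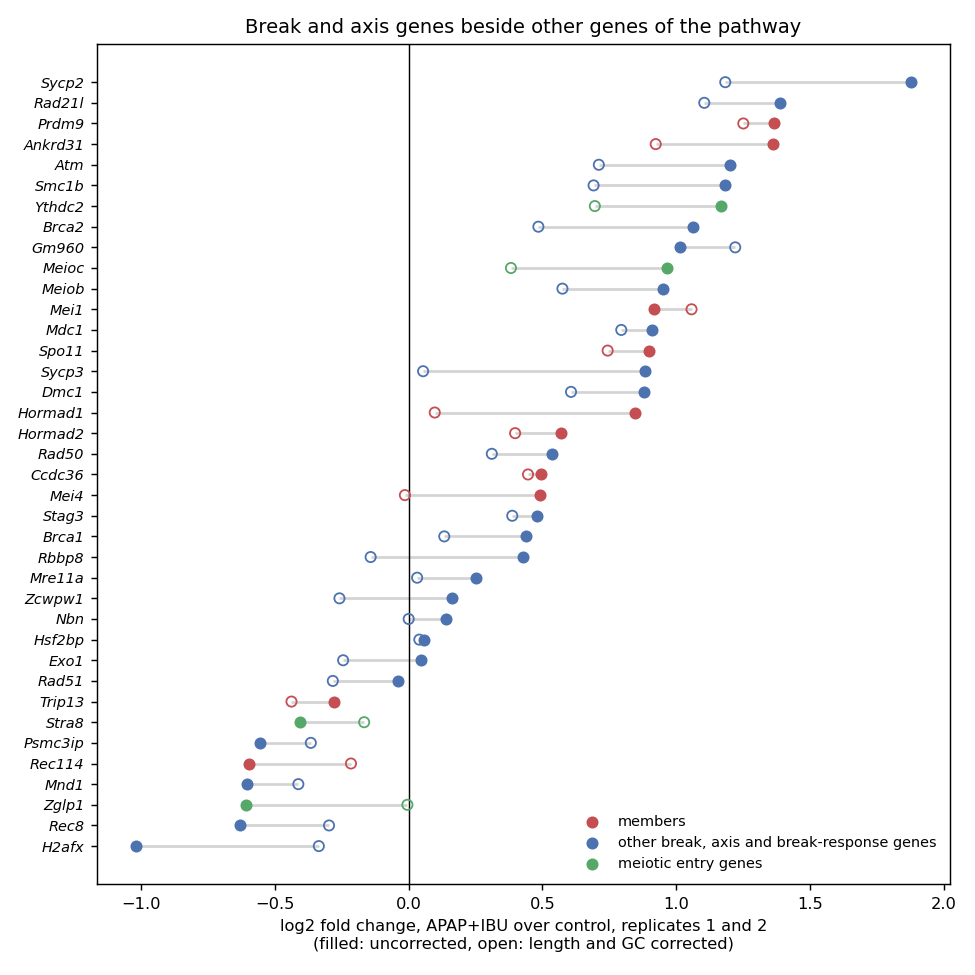
Log2 fold change in replicates 1 and 2 of the 10 members (red), 24 other break, axis and break-response genes (blue) and 4 meiotic entry genes (green), before (filled) and after (open) correction for exonic length and GC content. Prdm9 and Ankrd31 lie near the top beside Sycp2 and Rad21l, Rec114 and Trip13 near the bottom, and the open circles of most genes lie closer to 0.

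The genes most like the members over the 6 libraries were found by the root mean square difference of their centred log2 CPM from the median centred profile of the members, among 16052 genes with a mean of at least 1 CPM. They were Gm2011 (0.0531), Cyb5rl (0.0743), Nabp1 (0.0745), Acer3 (0.0791) and Garnl3 (0.0791). Nabp1 encodes a single-strand DNA binding protein and had 37.5, 44.2 and 39.5 CPM in controls and 63.5, 74.6 and 34.1 CPM in exposed ovaries. The median profile of the members stood at -0.22, -0.07 and -0.33 for the 3 controls and at 0.39, 0.58 and -0.40 for exposed replicates 1, 2 and 3. Hormad2 was the member nearest to it (0.0610), and Rec114 (0.555) and Trip13 (0.515) were the farthest. The likeness is a description over 6 libraries.

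Markers of other cell types differed between libraries too, and their part in the members' differences was not tested. The 6 pregranulosa genes (Foxl2, Wnt4 and others), which mark the ovarian soma, summed to 339 to 602 CPM in controls and 457 to 477 CPM in exposed ovaries, and edgeR called 0 of 6 over 6 libraries and 1 lower in replicates 1 and 2. Foxl2 itself was low, from 0.944 to 8.16 CPM. The 6 testis somatic genes summed to 9.83 to 22.5 CPM in controls and 8.93 to 11.02 CPM in exposed ovaries, with Insl3 at 0 in control replicate 2, and edgeR called 0 of the 5 tested over 6 libraries and 3 lower in replicates 1 and 2. Among the 12 spermatid genes, those for sperm chromatin proteins (Prm1, Prm2, Tnp1 and Tnp2) should be lacking in an ovary at this age. The 12 summed to 164, 52.5 and 49.5 CPM in controls and 9.42, 3.91 and 5.21 CPM in exposed ovaries. For all 12 the highest exposed library was below the lowest control, edgeR called 0 of them over 6 libraries and all 12 lower in replicates 1 and 2, and Acrv1 was at 0 in exposed replicates 1 and 3. The members summed to 262 CPM in control replicate 1, where the spermatid genes were highest, and to 284 and 254 CPM in control replicates 2 and 3. Rec114, Ccdc36 and Spo11 had their highest control level in replicate 1, and the other members had theirs in replicate 2 or 3. The 9 liver genes ranged from 249 to 1881 CPM in controls and 176 to 3043 CPM in exposed ovaries, with 0 called over 6 libraries and 1 lower in replicates 1 and 2. The 8 erythroid genes ranged from 5853 to 13652 CPM and from 2489 to 8652 CPM, with 0 and 3 (lower) called in the same fits. No gene of the pregranulosa, liver or erythroid lists was at 0. With the length and GC correction in replicates 1 and 2, edgeR called 1 pregranulosa gene higher and 0 lower. It then called 2 testis somatic and all 12 spermatid genes lower, and 0 liver and 0 erythroid genes. The shares among all tested genes are those given above for the same fits.

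**Figure D4:**
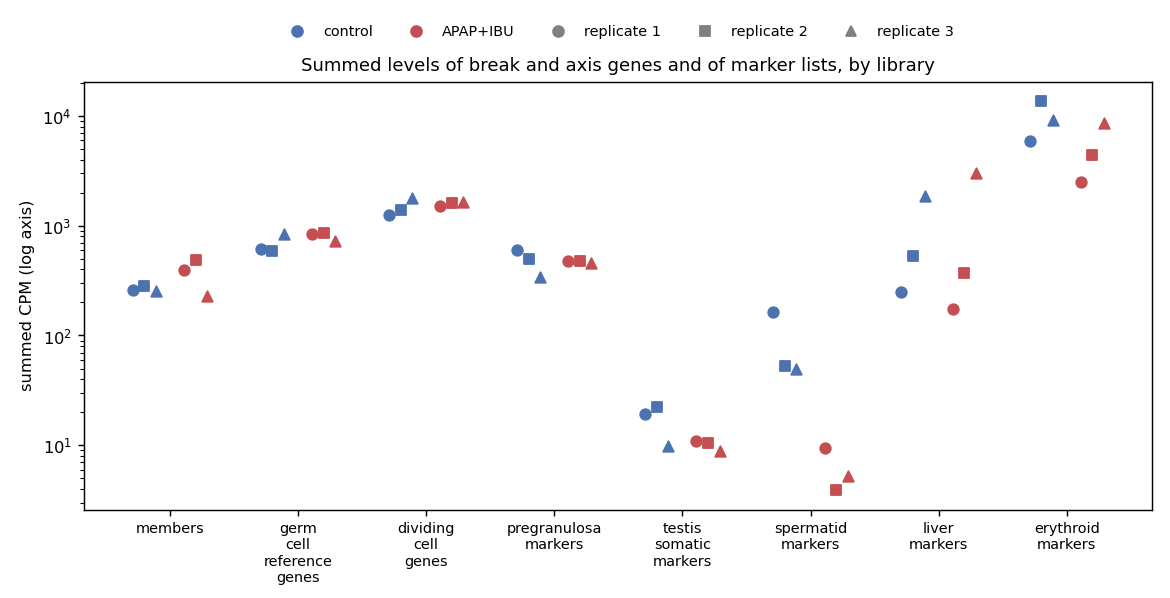
Summed CPM of the 10 members and of 7 marker lists in each library, on a log axis, with controls in blue, exposed ovaries in red and the replicate shown by the shape of the point. The members are highest in exposed replicates 1 and 2 (396 and 485 CPM), the spermatid genes are higher in all 3 controls, and the liver genes are highest in replicate 3 of each group.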

How the data were processed

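Polyadenylated RNA of 6 pools of 13.5 dpc ovaries went into stranded libraries. Reads were aligned by the authors to mm10 with TopHat2 2.0.14 and Bowtie2 2.1.0 and assigned to Ensembl release 86 genes with HTSeq 0.6.1, and raw counts of 48709 genes were deposited. The strand setting of the counting is not given in the sources used here. Groups came from the exposure label and replicate numbers from the titles.

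The counts were analysed in R 4.3.3 by the quasi-likelihood test of edgeR 4.0.16, with its expression filter, TMM normalisation and Benjamini-Hochberg adjustment over all 20167 tested genes. Calls needed an adjusted p below 0.05. Log2 CPM used a prior count of 1. GENCODE M21 (GRCm38, the mm10 assembly) gave gene symbols, coordinates, exonic length and GC content, the last pair for 20103 tested genes, and RefSeq gave promoters. Exonic length was taken over all transcripts of a gene, and GC content from its longest transcript. Loess fits (span 0.3) on length and GC in each library gave the correction. Fits of replicates 1 and 2 tested 20633 genes. DESeq2 1.42.0, other normalisations and filters, the replicate number as a block and leaving out each library were alternatives.

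The members, the gene lists and the alternatives were chosen with earlier results of these data known. The named genes are all 10 members, the 4 highest and 4 lowest other pathway genes by log2 fold change, and the 5 genes nearest to the members' median profile. Gm960, Zcwpw1, Nptn, Meioc, Ythdc2, Zglp1, Foxl2, Mad2l1 and the other named marker genes are outside this rule and were named after their values were seen. No 2 libraries of a group agreed within sampling noise (chi-square of 18.8 to 158 per degree of freedom), and the exact permutation test of 3 against 3 libraries cannot go below 0.1.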

Additional observations from a re-analysis of the deposited data

How the results depend on the processing

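Of the 17 alternatives, 15 called no member, and the number of members called was 6 with replicates 1 and 2 only and 6 with these and the length and GC correction. Leaving out any 1 library gave 0 to 0 members. For all tested genes, where no gene was called over 6 libraries, the number called was 120 without the filter on low counts, 192 in DESeq2, 5607 with replicates 1 and 2 only, 2870 with these and the correction, and 0 to 1064 with 1 library left out, the largest without control replicate 3. Of the other 24 break, axis and break-response genes, 17 were called with replicates 1 and 2 only, 8 with the correction added, and 0 to 2 with 1 library left out, again the most without control replicate 3. Mei4 reversed to -0.028 on the log2 scale with the length and GC correction, to -0.013 with this and replicates 1 and 2 only, and to -0.033 with this and the replicate block. Hormad1 reached -3.80e-05 under the correction with the block. The cause of these changes was not tested. Leaving out 1 library gave log2 fold changes from 0.74 to 1.43 for Ankrd31, from 0.52 to 1.37 for Prdm9, from 0.35 to 0.99 for Mei1, from 0.02 to 0.57 for Ccdc36, from 0.26 to 0.74 for Hormad1, from 0.19 to 0.56 for Hormad2 and from 0.11 to 0.35 for Mei4, in each case lowest without APAP+IBU replicate 2 and highest without APAP+IBU replicate 3. For Rec114 the range was -0.58 (without control replicate 3) to -0.10 (without control replicate 1), for Spo11 0.51 to 0.84 and for Trip13 -0.35 to -0.18. No normalisation or filter changed the sign of a member, and none moved the median of all genes by more than 0.05 on that scale.

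Deviations of libraries with the same number correlated at -0.07, -0.02 and -0.04 for replicates 1, 2 and 3. With 3 libraries a group these values cannot settle whether the numbers pair the pools. Replicate 3 of both groups had the high liver markers described above. With the replicate number as a block, 2 genes were called, or 34 with the correction, and 0 members.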
